A study of Mus musculus with 7 samples.

Results

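Transcripts of 10 small leucine-rich proteoglycan genes were followed in C3H10T1/2 cells exposed to purmorphamine, an agonist of the Hedgehog signal transducer Smo. The genes were Dcn, Bgn, Lum, Fmod, Ogn, Omd, Prelp, Aspn, Kera and Podn, taken by their symbols from a table of 18468 genes. All 10 had a row of the table, and 9 had enough reads for the test, Kera being the exception. With purmorphamine, Omd and Podn were 4.20-fold and 2.16-fold higher in mean reads and Aspn 1.77-fold higher, whereas Fmod was at 0.158 and Prelp at 0.556 of the vehicle level. Bgn, which had the most reads of the 10 genes in both groups, was at 0.768 of the vehicle level.

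Small leucine-rich proteoglycans are secreted proteins of the extracellular matrix whose core is a curved stack of leucine-rich repeats. Several carry chains of chondroitin or dermatan sulfate (decorin and biglycan) or of keratan sulfate (lumican, fibromodulin, keratocan), and many bind collagen fibrils, set their diameter and spacing, or hold growth factors such as TGF-β and BMPs in the matrix. They are typical products of mesenchymal cells, in tendon, cartilage, bone, cornea and skin.

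C3H10T1/2 is a mouse cell line of embryonic, mesenchymal origin, with the capacity to become bone, fat or cartilage cells. Both groups were kept without serum for 12 h, after which, still without serum, one group received 2 μM purmorphamine for 48 h (n = 4 libraries, numbered 5 to 8) and the other 0.02% DMSO, the vehicle (n = 3 libraries, numbered 2 to 4). All libraries came from this 1 line, and nothing in the sources says that they came from separate cultures, so p-values measure the spread between these libraries, which may be technical. Libraries kept the strand and used total RNA from which ribosomal RNA had been removed.

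The values are reads per gene on the sense strand, resampled by the authors to an equal depth, which was 14337225 to 14342154 reads per library in the table. A change is the log2 fold change of purmorphamine over DMSO from edgeR's quasi-likelihood test, with p-values adjusted by Benjamini and Hochberg's method over the 12388 genes tested, and an adjusted p under 0.2 made a call. Gli1, a transcriptional target of Hedgehog signaling and the check of the treatment, had 12, 7 and 11 reads with DMSO and 2811, 3171, 2576 and 2522 with purmorphamine. All 4 Hedgehog targets listed rose, with Ptch1, which encodes the Hedgehog receptor, at a log2 fold change of 4.34 and Hhip going from 1 read at most to between 139 and 197. Of the 9 mesenchymal markers for the cell line, all were detected, at a summed level of 17537 to 19967 CPM (reads scaled to a fixed library total) over the 7 libraries, and 4 rose and 3 fell. Adipoq, a defining adipocyte gene, and Ptprc, which marks leukocytes, were below the filter on low counts.

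Of the 9 genes tested, 5 were called increased and 4 decreased by edgeR, where 62.5% of all genes tested were called, 31.4% increased and 31.1% decreased. Calls were thus the rule in these libraries, and so the sizes of the changes are given too. A change of at least 1.5-fold was called for 5 of the 9, against 15.4% of all genes, and of at least 2-fold for 3 of the 9, against 6.66%. The family and the gene lists below were chosen with earlier results of these data known. Comparisons with all genes therefore describe them and do not test whether they stand out. The median absolute log2 fold change was 0.78 for the 9 genes and 0.20 for all genes tested, and the median signed values were 0.15 and 0.0038. The groups of libraries did not overlap in reads for 8 of the 9 genes, 5 with purmorphamine above DMSO and 3 below, where 49.5% of all genes had no overlap, 29.1% above and 20.4% below. In these bulk samples, fewer cells making a transcript and less of it per cell cannot be told apart.

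**Figure D1:**
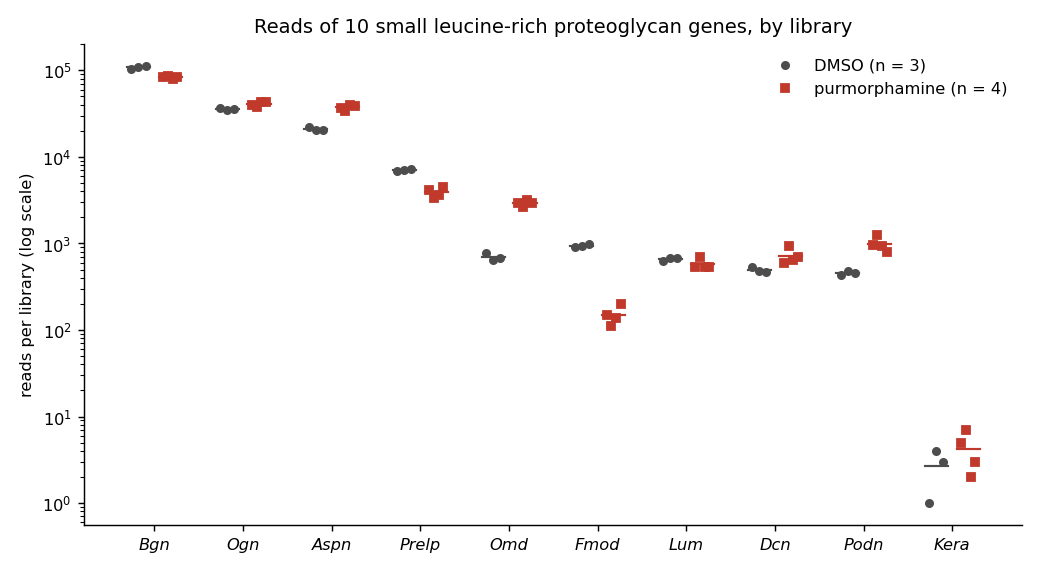
Reads per library on a log axis for each of the 10 genes, with DMSO libraries as gray circles (n = 3), purmorphamine libraries as red squares (n = 4) and the group means as lines. Fmod fell from 945 to 149 mean reads and Omd rose from 697 to 2928, whereas the groups overlap for Lum and Kera.

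The summed reads of the 10 genes, as deposited, changed little while their make-up shifted. The sum was 173581, 174034 and 179447 reads in the DMSO libraries and 169191, 167575, 172286 and 175188 in the purmorphamine libraries, or 1.23% ± 0.0228 (SD, n = 3) and 1.19% ± 0.0235 (SD, n = 4) of all reads. The ranges of the groups overlap in the reads as deposited. After scaling by TMM factors (0.978 to 0.986 with DMSO, 1.006 to 1.019 with purmorphamine), every purmorphamine sum was below every DMSO sum. Bgn made up 61.8% ± 1.54 (SD, n = 3) of this sum with DMSO and 48.8% ± 2.19 (SD, n = 4) with purmorphamine. The share of the 3 genes on chromosome 13, Aspn, Omd and Ogn, went from 32.8% ± 1.59 to 47.5% ± 2.32, and that of the pair on chromosome 1, Prelp and Fmod, from 4.54% ± 0.0609 to 2.37% ± 0.290. A share of a sum depends on the other parts of the sum, and so each gene is given below on its own reads.

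**Figure D2:**
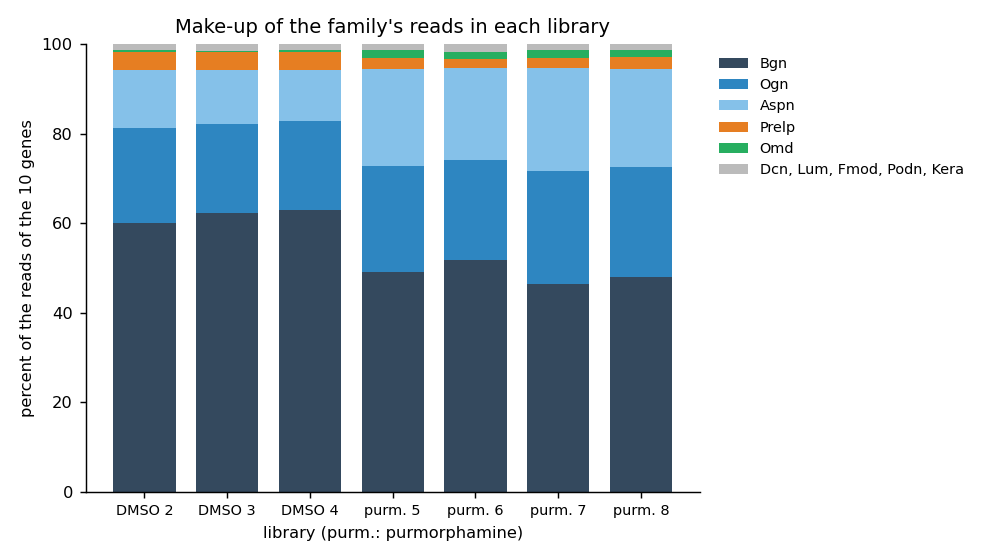
Stacked bars of the percent of the 10 genes' reads taken by each gene, 1 bar for each of the 3 DMSO and 4 purmorphamine libraries. Bgn takes 61.8% of the sum on average with DMSO and 48.8% with purmorphamine, and the bands of Aspn and Omd are wider in every purmorphamine library.

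Genes of this family lie in clusters, and the members of the chromosome 13 cluster all rose. In GRCm38, Aspn (ENSMUSG00000021388, 49544443 to 49567565), Omd (ENSMUSG00000048368, 49582462 to 49592822) and Ogn (ENSMUSG00000021390, 49608046 to 49624501) stand on the plus strand of chromosome 13, behind their relative Ecm2 (49504810 to 49532789). The 4 genes span 119.692 kb, within Cenpp, which runs on the minus strand from 49464023 to 49652785 and encodes a centromere protein. The reads were counted by strand.

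Omd encodes osteomodulin, also called osteoadherin, a keratan sulfate proteoglycan of mineralized matrix. It had 775, 642 and 674 reads with DMSO and 2961, 2671, 3162 and 2919 with purmorphamine. Every purmorphamine library was far above every DMSO library, and the log2 fold change was 2.02 (standard error, SE, 0.0714, edgeR adjusted p = 5.69e-13). Aspn encodes asporin, which has a run of aspartate residues in place of the usual glycosaminoglycan attachment site and binds collagen and TGF-β. It had 22391, 20689 and 20293 reads with DMSO and 36829, 34353, 39839 and 38645 with purmorphamine. The groups again did not overlap, with a log2 fold change of 0.78 (SE 0.0584, edgeR adjusted p = 8.39e-09). For Omd and Aspn the exact permutation test, two-sided, gave p = 0.0286, the smallest that 3 libraries against 4 allow.

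Ogn encodes osteoglycin, or mimecan, which was isolated from bone and is a keratan sulfate proteoglycan in cornea. It moved least within the cluster, with 36860, 34696 and 35678 reads with DMSO and 40036, 37616, 43299 and 42994 with purmorphamine. The reads as deposited did not overlap, but after scaling by TMM factors they did, and the log2 fold change of 0.15 (SE 0.0559, edgeR adjusted p = 0.0359) came with an exact permutation p of 0.0857. Relative to Ogn, its neighbors shifted in every library. There were 56.9 to 60.7 Aspn reads per 100 Ogn reads with DMSO and 89.9 to 92.0 with purmorphamine, and 1.85 to 2.10 Omd reads per 100 Ogn reads with DMSO and 6.79 to 7.40 with purmorphamine.

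Ecm2, a matrix protein with leucine-rich repeats at the start of the same cluster, had 963, 952 and 924 reads with DMSO against 1333, 1324, 1456 and 1352, and its log2 fold change was 0.48 (SE 0.0521, edgeR adjusted p = 8.14e-07). The genes on either side went the other way by a small amount: Ippk, an inositol phosphate kinase, had a log2 fold change of -0.30 and Nol8, a nucleolar protein, of -0.21 (edgeR adjusted p = 0.00762 and 0.0114). Cenpp, around the cluster, had 0.41 (SE 0.194, edgeR adjusted p = 0.0966), with overlapping groups of libraries. These flanking and overlapping genes, like those of the other clusters, were added by their position after the values of the table had been seen.

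The upstream sequences of the cluster's members and of 3 genes that fell are shown because they differ in base composition. Each is the 100 bases before the gene's start in the RefSeq promoter table (GRCm38.p6), 5′ to 3′ on the gene's own strand. The windows are chr13:49544343-49544442 for Aspn, chr13:49582362-49582461 for Omd and chr13:49607915-49608014 for Ogn, all plus strand. Those of the others are chr1:134037154-134037253 for Fmod (plus strand), chr1:133921402-133921501 for Prelp (minus strand) and chrX:73483501-73483600 for Bgn (plus strand). Capitals mark a match to the Runx motif TGTGGT on either strand.
Aspn: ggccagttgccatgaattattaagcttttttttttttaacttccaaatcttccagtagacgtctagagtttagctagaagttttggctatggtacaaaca
Omd: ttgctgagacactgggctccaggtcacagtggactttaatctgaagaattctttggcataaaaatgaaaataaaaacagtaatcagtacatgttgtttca
Ogn: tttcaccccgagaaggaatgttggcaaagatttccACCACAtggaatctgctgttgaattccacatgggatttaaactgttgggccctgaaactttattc
Fmod: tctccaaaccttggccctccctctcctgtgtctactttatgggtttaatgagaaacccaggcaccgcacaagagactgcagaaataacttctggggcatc
Prelp: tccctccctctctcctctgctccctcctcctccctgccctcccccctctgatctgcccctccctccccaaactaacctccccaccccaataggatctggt
Bgn: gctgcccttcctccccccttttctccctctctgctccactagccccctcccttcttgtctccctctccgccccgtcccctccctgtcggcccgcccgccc

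Over the 250 bases before the start, GC content was 30.0% for Aspn, 38.4% for Omd and 42.0% for Ogn. It was 51.2% for Fmod, 55.6% for Prelp and 64.4% for Bgn, where the quartiles of the 32817 windows in the table were 45.2%, 52.4% and 61.2%. The 3 members of the chromosome 13 cluster thus lay below the lower quartile, and Bgn above the upper one. Podn, which also rose, had 2 windows at 78.0% and 64.0%, and Kera had 42.4%. Among the relatives, Epyc, which fell, had 2 windows at 39.2% and 31.2%, and Tsku, which rose, had 2 at 68.0% and 69.2%. Ecm2, which rose, had 40.0% and Chadl, which fell, 65.2%. A link between GC content and direction was not tested. Windows were found for 8 of the 10 genes, not for Dcn and Lum. A Gli motif, GACCACCCA on either strand, is in 0.225% of all windows and in none of these genes. An AP-1 motif, TGANTCA on either strand, is in 6.75% of all windows and likewise in none. The Runx motif TGTGGT, in 14.0% of all windows, was matched only in Ogn, as ACCACA 65 bases before the start. These letters describe the windows and show no binding.

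Both members on chromosome 1 fell. Fmod (ENSMUSG00000041559, 134037254 to 134048277, plus strand) encodes fibromodulin, a keratan sulfate proteoglycan that binds fibrillar collagen in tendon and cartilage. It had 899, 941 and 994 reads with DMSO and 148, 112, 138 and 199 with purmorphamine, so that the highest purmorphamine library was well below the lowest DMSO library. Its log2 fold change was -2.71 (SE 0.111, edgeR adjusted p = 3.45e-12). Prelp (ENSMUSG00000041577, 133910304 to 133921414, minus strand) encodes a protein with an arginine- and proline-rich start that binds heparan sulfate as well as collagen. It had 6860, 6989 and 7238 reads with DMSO and 4144, 3332, 3655 and 4501 with purmorphamine, for a change of -0.89 on the log2 scale (SE 0.0745, edgeR adjusted p = 3.09e-08), again with no overlap. The exact permutation p was 0.0286 for Fmod and for Prelp. The pair did not fall in step, since there were 13.1 to 13.7 Fmod reads per 100 Prelp reads with DMSO and 3.36 to 4.42 with purmorphamine. Their relative Optc, which encodes opticin of the eye and stands beside Prelp, had at most 7 reads in a library. Of the flanking genes, the calcium pump gene Atp2b4 had a log2 fold change of 0.42 and the antiproliferative gene Btg2 of -0.89 (edgeR adjusted p = 0.00132 and 3.53e-07).

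The chromosome 10 cluster, Dcn, Lum, Kera and their relative Epyc, spans 202.846 kb on the plus strand and was mixed in direction. Dcn (ENSMUSG00000019929, 97479609 to 97518143) encodes decorin, which binds collagen I and TGF-β and is abundant in many connective tissues. In these cells it had only 536, 475 and 472 reads with DMSO and 602, 946, 641 and 699 with purmorphamine. The groups did not overlap, the log2 fold change was 0.50 (SE 0.117, edgeR adjusted p = 0.00211) and the exact permutation p was 0.0571. Lum (ENSMUSG00000036446, 97565128 to 97572703) encodes lumican, a keratan sulfate proteoglycan needed for the order of collagen in the cornea. It had 632, 686 and 676 reads with DMSO and 528, 707, 532 and 529 with purmorphamine. The reads of replicate 6 as deposited lay above every DMSO library and those of the others below. After TMM scaling replicate 6 lay within the DMSO range and the others below it, and the log2 fold change of -0.26 (SE 0.0879, edgeR adjusted p = 0.023) came with an exact permutation p of 0.114. There were 69.2 to 84.8 Dcn reads per 100 Lum reads with DMSO and 114 to 134 with purmorphamine.

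Kera (ENSMUSG00000019932, 97606879 to 97613692) encodes keratocan of the corneal stroma and was nearly silent, at 1, 4 and 3 reads with DMSO and 5, 7, 2 and 3 with purmorphamine, and a difference was not detectable at this depth (exact permutation test, p = 0.371). Epyc, which encodes epiphycan of growth-plate cartilage, had 331, 368 and 334 reads with DMSO and 19, 37, 26 and 31 with purmorphamine. Its log2 fold change was -3.65 (SE 0.136, edgeR adjusted p = 1.05e-12), past that of any of the 9 genes. The cluster runs from 97479609 to 97682454, and its flanking genes lie farther off than those of the other clusters. Btg1, an antiproliferative gene that ends at 96622809, was at -0.87 (edgeR adjusted p = 1.54e-08). The calcium pump gene Atp2b1, which starts at 98914406, was at 0.03 (edgeR adjusted p = 0.642).

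**Figure D3:**
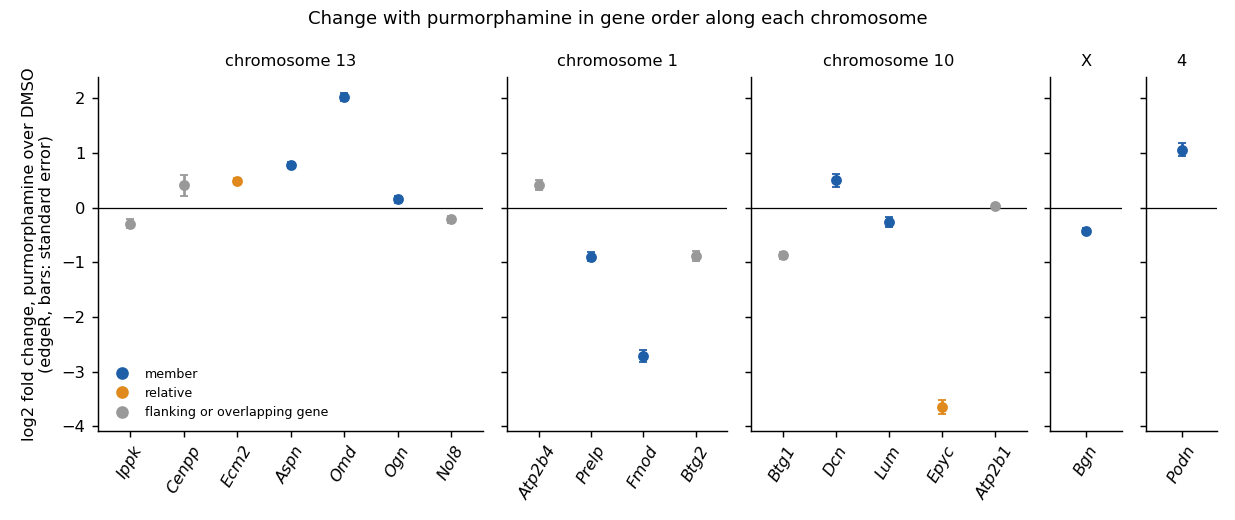
Log2 fold change of purmorphamine over DMSO from edgeR (vertical axis, bars are the standard error) for genes in their order along chromosomes 13, 1, 10, X and 4, with family members in blue, relatives in orange and flanking or overlapping genes in gray. The members on chromosome 13 lie above 0 (0.15 to 2.02), those on chromosome 1 below it (-0.89 and -2.71), and Dcn and Lum on either side. Kera and Optc, which were not tested, are not drawn.

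The remaining members stand alone. Bgn (ENSMUSG00000031375, chromosome X, 73483602 to 73495933, plus strand) encodes biglycan, which binds BMPs and takes part in bone formation. It was the gene ranked 2 of 18468 by mean reads with DMSO and 6 with purmorphamine. There were 104191, 108427 and 112963 reads with DMSO and 82974, 86564, 80077 and 83904 with purmorphamine, with no overlap. The log2 fold change was -0.43 (SE 0.0491, edgeR adjusted p = 1.71e-06) and the exact permutation p was 0.0286. Podn (ENSMUSG00000028600, chromosome 4, 108014791 to 108096445, minus strand) encodes podocan, a more distant family member that was found in sclerosing kidney glomeruli. It had 436, 485 and 456 reads with DMSO and 964, 1267, 941 and 795 with purmorphamine. It rose with no overlap by 1.06 on the log2 scale (SE 0.114, edgeR adjusted p = 7.6e-07, exact permutation p = 0.0286).

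Levels were compared between genes as RPKM (CPM per kilobase of exon), with the union of each gene's exons in GENCODE M21 as its length. With DMSO, the order of mean levels was Bgn (1241), Ogn (971), Aspn (626), Prelp (136), Omd (21.6), Fmod (19.9), Lum (18.9), Podn (7.50), Dcn (5.90) and Kera (0.0816). Neighbors in this order had separate libraries except Omd and Fmod, and Fmod and Lum, which overlapped. With purmorphamine the RPKM order was Ogn (1114), Aspn (1109), Bgn (953), Omd (90.8), Prelp (75.4), Lum (16.4), Podn (16.2), Dcn (8.63), Fmod (3.15) and Kera (0.130). Here Ogn and Aspn, Omd and Prelp, and Lum and Podn overlapped. The first place depended on the length, as the union of exons of Bgn is 6099 bases and its longest transcript 2666. With the longest transcript as length, Bgn was at 2838 RPKM with DMSO and 2181 with purmorphamine, ahead of Ogn and Aspn in both groups.

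Among the purmorphamine libraries, replicate 6 was the one most often at an extreme. Replicate 6 was the highest or the lowest of the 4 purmorphamine libraries for 10 of the 10 genes, the highest for Dcn, Bgn, Lum, Kera and Podn and the lowest for Fmod, Ogn, Omd, Prelp and Aspn. Over all 12388 genes tested it was at an extreme for 61.9%, against 57.8% for replicate 7, 44.0% for replicate 8 and 36.3% for replicate 5. An extreme was not always a large departure from the group's mean in log2 of TMM-scaled reads. For Bgn, replicates 6 and 7 lay at 0.048 and -0.047, and Kera had 7 reads at most. For Fmod, replicate 8 lay farther out (0.44) than replicate 6 (-0.39). Without replicate 6 the log2 fold change was 0.35 for Dcn, -0.36 for Lum, 0.93 for Podn, -2.58 for Fmod and -0.81 for Prelp. It was 0.20 for Ogn, 2.08 for Omd, 0.83 for Aspn and -0.44 for Bgn. No direction and no call of these 9 genes changed without it.

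**Figure D4:**
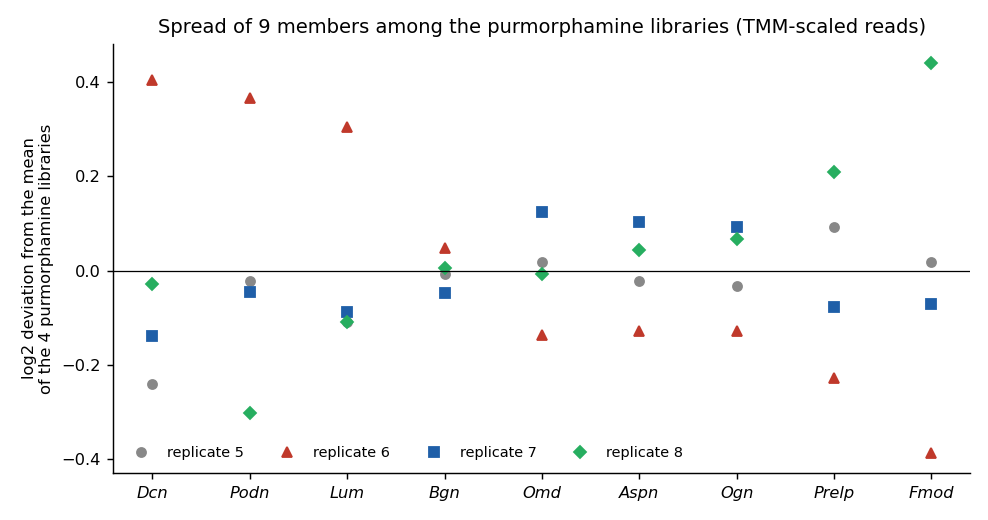
Deviation of each purmorphamine library (n = 4, 1 symbol per replicate) from the group's mean, in log2 of TMM-scaled reads, for the 9 genes tested. Replicate 6 (red triangles) is the highest or the lowest of the 4 for each of these genes.

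Among relatives of the family not named above, Tsku, which encodes the secreted protein tsukushi, had 130, 144 and 160 reads with DMSO and 238, 279, 224 and 214 with purmorphamine (log2 fold change 0.68, SE 0.110, edgeR adjusted p = 7.85e-05). Chadl, a chondroadherin-like gene of cartilage, had 52, 59 and 65 reads with DMSO and 22, 27, 28 and 21 with purmorphamine (log2 fold change -1.30, SE 0.180, edgeR adjusted p = 1.39e-05). Podnl1, the paralog of Podn, had 14, 13 and 12 reads against 7, 6, 14 and 12, a change that was not called (log2 fold change -0.46, edgeR adjusted p = 0.275). Nyx, which encodes nyctalopin of the retina, had 8 reads at most, and Chad had no row. Of the 5 relatives tested, 2 were called increased and 2 decreased.

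By calls at an adjusted p under 0.2, genes for the linker and for chondroitin and dermatan sulfate chains fell more often than they rose. For keratan sulfate chains more were called increased than decreased, but none of those increased reached 1.5-fold. Of 12 tested genes for the linker sugars and the sulfate donor, 10 fell and 1 rose, with a median log2 fold change of -0.33 against 0.0038 for all genes tested, of which 31.1% fell and 31.4% rose. Papss2, which makes the sulfate donor PAPS, had 6142 ± 145 reads (SD, n = 3) with DMSO and 1020 ± 193 (SD, n = 4) with purmorphamine, at a log2 fold change of -2.64 (edgeR adjusted p = 6.76e-13). The sulfate transporter gene Slc26a2 fell by 1.44, Papss1 by 0.61 and Slc35b2, which carries PAPS into the Golgi, by 0.53 on the log2 scale. With a change of at least 1.5-fold required, 3 fell and 0 rose. The gene that rose was Xylt2, a xylosyltransferase that starts the linker, at 0.30. Xylt2, and Chst3, Bmp1 and Tnmd below, were named after their values had been seen.

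Of 14 tested genes for chondroitin and dermatan sulfate chains, 9 fell and 3 rose (median log2 fold change -0.37), and 3 fell and 0 rose by at least 1.5-fold. Among the 9 that fell were Csgalnact1, which starts the chondroitin chain, at -0.74, and the sulfotransferase gene Chst15, at -0.66. The polymerizing enzyme gene Chsy1, at -0.58, and the sulfotransferase gene Chst7, at -0.56, fell by less than 1.5-fold. The largest fall was that of Chst3, at -1.23, on 35.3 mean reads with DMSO and 15.5 with purmorphamine. Of 5 genes for keratan sulfate chains, 2 rose and 1 fell (median log2 fold change 0.08), and 0 rose and 1 fell by at least 1.5-fold. Chst2, which sulfates N-acetylglucosamine, was at 0.53, B4galt1 at 0.15 and the fucosyltransferase gene Fut8 at -0.59.

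Of 13 collagen genes whose products bind these proteoglycans, 8 fell and 3 rose, at a median log2 fold change of -0.12, and 4 fell and 1 rose by at least 1.5-fold. Col2a1 and Col11a1, of cartilage fibrils, were at -3.20 and -1.68 and Col5a3 at -0.64, whereas Col6a3, of beaded microfibrils, was at 0.86. Of 15 genes for fibril assembly and processing, 10 fell and 3 rose (median log2 fold change -0.38), and 6 fell and 1 rose by at least 1.5-fold. The cross-linking genes Plod2 and Lox were at -1.47 and -0.82. The procollagen N-proteinase genes went in opposite directions, Adamts14 at 3.42 (68.3 ± 13.6 to 756 ± 152 mean reads) and Adamts2 at -0.81. Bmp1, which trims procollagens and the biglycan precursor, was at 0.31.

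Of 6 genes for proteases that cleave the family, 3 rose and 3 fell, and 1 rose and 2 fell by at least 1.5-fold. Adamts1 was at 0.74, Adamts5 at 0.53, Mmp2 at -0.71 and Adamts4 at -0.64 on the log2 scale. Of 16 genes for growth factors and receptors that these proteoglycans bind, 7 rose and 4 fell, 4 and 2 of them by at least 1.5-fold, and the median log2 fold change was 0.05. The decorin-binding receptor genes Egfr and Met were at 2.24 and 1.22, Ctgf at 1.56 and Wisp1 at -1.44. Of 16 genes for other matrix and cell-surface proteoglycans, 10 fell and 3 rose (median log2 fold change -0.22), and 5 fell and 1 rose by at least 1.5-fold. Acan, the large proteoglycan of cartilage, had the largest change of the 16, at -4.33 (124 ± 10.2 to 6.25 ± 3.40 mean reads). The heparan sulfate proteoglycan genes Gpc6 and Agrn were at -1.57 and -0.80 and Gpc4 at 1.06.

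**Figure D5:**
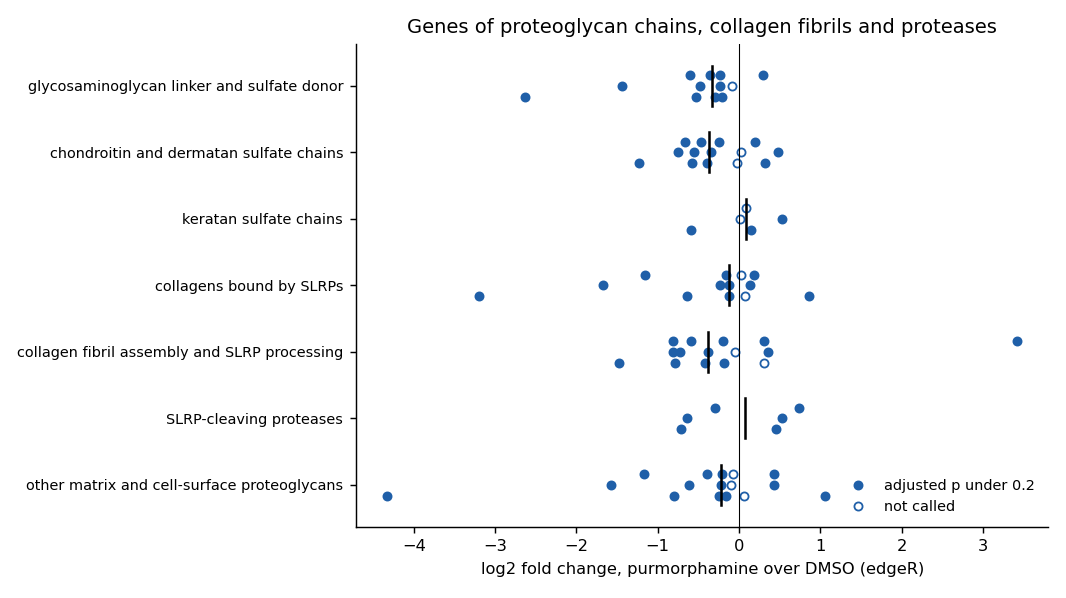
Log2 fold change of purmorphamine over DMSO from edgeR (horizontal axis) for each tested gene of 7 lists, filled where called at an adjusted p under 0.2 and open where not, with the list's median as a black bar. The medians lie at -0.33 for linker and sulfate donor genes, -0.37 for chondroitin and dermatan sulfate genes and 0.08 for keratan sulfate genes.

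Markers of several tissues that are rich in these proteoglycans moved in the same libraries. Of 6 tested tendon genes, 3 fell and 2 rose, and 3 fell and 0 rose by at least 1.5-fold. The matrix genes Thbs4, Tnc and Comp were at -2.83, -2.70 and -0.84 and the transcription factor gene Mkx at 0.54 on the log2 scale. Scx, a defining tendon gene, was below the filter, and Tnmd, another, was at -0.12 and not called. Of 6 tested cartilage markers, 6 fell, and their sum went from between 1093 and 1116 CPM with DMSO to between 205 and 267 CPM with purmorphamine. Acan and Col2a1 are in this list and in lists above. The smooth muscle markers summed to 685 to 744 CPM with DMSO and 321 to 431 CPM with purmorphamine, 3 of 4 tested being called decreased. Of 5 tested osteoblast markers, 2 rose and 3 fell. Alpl went from 1 read at most with DMSO to between 181 and 228 with purmorphamine, and Runx2 was at 0.44 on the log2 scale. Spp1, Dmp1 and Phex were at -2.02, -2.86 and -1.30. These opposite changes are hidden in the sums, 220 to 232 CPM with DMSO and 196 to 209 CPM with purmorphamine. The defining genes Sp7, Bglap and Ibsp were below the filter. Adipocyte markers (50.6 to 52.9 and 40.9 to 46.0 CPM) fell in 2 of 2 tested. Of 5 endothelial markers, 2 were tested and rose, Tek and Cdh5, and Tek had nearly all reads of the sum (54.3 to 57.3 and 132 to 150 CPM). Pecam1 and Vwf, defining endothelial genes, and Kdr were below the filter, with 5 reads at most. Of the other lists, the 1 epithelial marker tested rose (0.976 to 1.60 and 7.74 to 9.49 CPM), while of 1 leukocyte marker tested none was called. The part of these markers in the results for the family was not tested.

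The genes with profiles most like those of Bgn and Ogn, the pair with the highest RPKM averaged over all 7 libraries, are given as a description over 7 libraries that share 2 conditions, from 10664 genes whose reads averaged 50 or more. For Bgn they were Ppa1, an inorganic pyrophosphatase gene (Pearson r of log2 CPM 0.9996), Sepx1, a methionine sulfoxide reductase gene (0.9987), and Epas1, a hypoxia-inducible transcription factor gene (0.9977). For Ogn they were Btbd10 (0.989), the actin-binding protein gene Cald1 (0.982) and Commd8 (0.980).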

How the data were processed

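RNA from 3 DMSO and 4 purmorphamine libraries was sequenced, and the authors deposited read counts per gene on the sense strand, whole numbers resampled to equal depth. The submitters' processing notes name STAR 2.5.3a and mm9, with no role for either, and the annotation is not given in the sources used here. Groups came from the labels. The family members and the gene lists were chosen with earlier results of these data known.

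The counts were tested with edgeR 4.0.16 (limma 3.58.1, R 4.3.3) with TMM factors, a quasi-likelihood test with no covariates, and edgeR's filterByExpr at its defaults (10 counts scaled to library size, 15 in total), which left 12388 of 18468 genes. An adjusted p (Benjamini-Hochberg) under 0.2 made a call. Single members were also compared by an exact permutation test, two-sided, over the 35 assignments of the libraries, on mean log2 TMM-scaled reads with 1 added. Libraries of a group differed beyond sampling noise (mean chi-square per gene 2.07 to 8.03), and each was counted as a sample. At this depth a gene with no reads could be present at up to 0.209 CPM (3 reads), which covers counting error only.

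Named were the 10 members, their relatives, Gli1, Ptch1 and Hhip, and for each list up to 4 called genes of largest change that averaged 50 reads or more and whose groups did not overlap. For Bgn and Ogn, the members with the highest RPKM averaged over the 7 libraries, the 3 genes of most similar profile were named. Positions and lengths were from GENCODE M21 (GRCm38) by Ensembl identifier (95.5% of genes matched), since the table's own coordinates are of another build. Promoter windows were from RefSeq, GRCm38.p6. Results were recomputed with DESeq2 1.42.0, limma-voom, other scaling and filters, stricter thresholds, other gene lengths and without each library. The edgeR test alone was tried on simulated counts. Few genes changed in them, whereas 62.5% of the genes tested were called here, so that trial does not cover the share of changed genes in these data.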

Additional observations from a re-analysis of the deposited data

Results flagged for a closer look

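In 3 of 68 genes examined, 1 of the 4 purmorphamine libraries stood apart from the others by Dixon's ratio, the gap to the nearest library over the group's range, in TMM-scaled reads. Chance alone flags about 1 in 20 groups, or 3.4 of 68. Lum had a ratio of 0.952, with 528, 707, 532 and 529 reads in replicates 5 to 8, replicate 6 being the one apart. Nyx had a ratio of 0.987, with 3, 3, 4 and 3 reads, so that the gap is 1 read. Col6a3 had a ratio of 0.843, with 6683, 6715, 6503 and 5869 reads, replicate 8 being the one apart.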

How the results depend on the processing

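No paired analysis was possible because the DMSO libraries are numbered 2 to 4 and the purmorphamine libraries 5 to 8, so that the groups share no replicate number. The counts of genes called, 3887 increased and 3854 decreased, moved beyond 1.5 times only when a change of at least 1.5-fold was required, which left 977 and 936 of all genes and 3 and 2 of the family. The genes then lost were Dcn, Bgn, Lum and Ogn. With each library left out, 3500 to 3961 genes were called increased and 3374 to 3793 decreased, and 5 and 4 of the family in each case. Family counts were also 5 and 4 with library totals, RLE factors, DESeq2, limma-voom, other filters and an adjusted p under 0.05. The largest adjusted p over these alternatives was 0.152 for Ogn (without DMSO replicate 3), 0.0835 for Lum and 0.0178 for Dcn. No direction of the 65 named genes tested was reversed over 971 values. These include values under the stricter adjusted p and the fold requirement, which keep the main fold changes and could not reverse. Apart from the fold requirement, calls were lost for Cenpp under 5 alternatives and Btbd10 under 2, and gained for Podnl1 with limma-voom (adjusted p = 0.199) and without purmorphamine replicate 7 (0.126), and for Atp2b1 with library totals (0.177, edgeR). The cause was not tested. Library totals in place of TMM factors shifted the median log2 fold change by 0.0475. Depth limits what can be said of Kera, Optc, Nyx and Podnl1, which had 14 reads at most.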
